A study of Mus musculus with 16 samples.

Results

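Transcripts of the nuclear genes of oxidative phosphorylation were examined in outflow valves of mouse embryos at stage E14.5 (embryonic day). The genes were chosen by symbol, as those that start with Ndufa, Ndufb, Ndufc, Ndufs, Ndufv, Uqcr, Atp5, Cox4, Cox5, Cox6, Cox7 or Cox8, together with Sdha, Sdhb, Sdhc and Sdhd. Of 90 measured symbols that met this rule, 8 Ndufaf assembly factors and 1 processed pseudogene (Ndufb4c) were left out, and 81 of the 13964 genes in the table remained. They comprised 36 genes of complex I, 4 of complex II, 8 of complex III, 17 of complex IV and 16 of complex V. Ndufa4 and its relative Ndufa4l2 were counted with complex IV, where the Ndufa4 protein is found, in spite of their names. Atp5s and Cox7a2l met the rule although they are not core subunits. Atp5g2, Cox7a1, Cox7b2 and Cox8c were not analysed here.

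Valve tissue had been cut by laser microdissection from hearts on a C57BL/6 background, with 4 libraries in each of 4 groups: mutant pulmonary valve, wild-type pulmonary valve, mutant aortic valve and wild-type aortic valve. The mutants are labelled Jag1flox;Nkx2.5-Cre, so that Cre recombinase expressed from Nkx2-5, a gene of cardiac progenitors and heart muscle, removes floxed sequence of Jag1, which encodes a Notch ligand. The wild-type embryos are not labelled as carrying Cre or a floxed allele, so effects of the Cre, of the floxed allele and of Jag1 loss cannot be told apart. Pulmonary and aortic libraries were also prepared as separate batches, and a difference between valves cannot be told apart from one between batches. Within a valve, the mutant and the wild-type library of 1 replicate number come from the same litter, and the 16 libraries come from 5 litters. Whether a pulmonary and an aortic library came from the same embryo is not stated in the labels.

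Complexes I to IV of the inner mitochondrial membrane pass electrons from NADH and succinate to oxygen, and complexes I, III and IV pump protons as they do so. Complex V, the ATP synthase, lets the protons flow back and makes ATP. Every complex except complex II joins subunits encoded by the nucleus with subunits encoded by mitochondrial DNA, and heart and skeletal muscle, which are rich in mitochondria, use muscle isoforms of several complex IV subunits.

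Between 4.56 and 8.68 M reads (M, megareads) were recovered per library, at a median of 7.37 M. Jag1 checked the labels: it was 1.85 to 12.4 normalised counts in mutant and 13.6 to 25.7 in wild-type pulmonary libraries, and 5.93 to 11.4 in mutant and 18.8 to 54.7 in wild-type aortic libraries. Both differences had an exact two-sided permutation p of 0.0286, the smallest that 4 against 4 libraries allow when the litter pairs are left aside, as here. Normalised counts are CPM after trimmed-mean scaling, and log2 values are log2(normalised count + 1), which understates the change of low genes.

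The libraries differed in muscle transcripts. Mylpf, which encodes a light chain of fast skeletal muscle myosin, was at least 100 in 10 libraries and below 100 in 6. In the 10 it was 278 to 900 normalised counts: mutant pulmonary 1, 2 and 3, wild-type pulmonary 1 and 3, mutant aortic 1, 2 and 3, and wild-type aortic 1 and 3. In the 6 it was 0.569 to 23.2: mutant pulmonary 4, wild-type pulmonary 2 and 4, mutant aortic 4, and wild-type aortic 2 and 4. The library closest to the threshold from above was mutant aortic 2, at 278, and the closest from below was wild-type aortic 2, at 23.2. In each valve 1 of 4 mutant and 2 of 4 wild-type libraries lay below 100, so the split was uneven between genotypes. These sets are drawn from a measured gene and not from the labels, so the differences between them are given as descriptions, with no test.

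Marker levels of several cell types moved with the split. All 14 skeletal muscle markers were measured, and their summed level was 801 to 2513 normalised counts with Mylpf at least 100 and 8.53 to 69.6 below 100. The list holds Mylpf itself, so this sum is in part set by the split. Without Mylpf, the other 13 summed to 430 to 1613 with Mylpf at least 100 and 7.90 to 46.4 below 100, and 12 of the 13 were without overlap. The 12 of 15 cardiomyocyte markers that were measured summed to 960 to 3748 with Mylpf at least 100 and 169 to 597 below 100. Actc1, cardiac alpha-actin, made up much of that sum, at 639 to 2151 and 54.5 to 173. Of the 12 cardiomyocyte markers, 3 (Actc1, Actn2 and Myl4) were without overlap and 9 overlapped. Among the 9 were Myh6, a cardiac myosin heavy chain, at 0.420 to 112 and 0.612 to 20.2, and Tnni3, at 0 to 73.6 and 0.427 to 4.16. In log2 level 11 of the 12 were higher with Mylpf at least 100. Ryr2 was lower, with medians of 6.92 with Mylpf at least 100 and 13.5 below 100. Whether cardiomyocyte content followed the split was not tested. All 9 valve mesenchyme markers summed to 1964 to 8789 with Mylpf at least 100 and 8653 to 12040 below 100, and all 6 endothelial markers to 197 to 879 and 895 to 1784. Valve mesenchyme markers were thus present in every library, and none of the cell type markers measured was at 0 in all 6 libraries below 100. In each of these 2 lists, 2 markers were without overlap and 1 went the other way, Prrx1 (log2 difference 0.20) and Emcn (0.73). All 5 neuronal markers measured were higher in log2 level with Mylpf at least 100. The sums of neuronal, smooth muscle, erythroid, macrophage and proliferation markers overlapped between the sets. The part of these cell types in the differences below was not tested, and in bulk tissue fewer cells of a type and less RNA per cell cannot be told apart.

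The promoters of 3 members are shown, for a muscle isoform, a ubiquitous isoform of complex IV and a subunit of complex V. Each line holds the 250 bases before the transcription start given by RefSeq, from GRCm38.p6, read 5′ to 3′ on the minus strand of the genome. Capitals mark the motif matches. Cox8b, the muscle isoform of subunit VIII, is shown for chr7:140900447-140900696 and holds an E-box (CAGCTG), the motif of muscle basic helix-loop-helix factors. Cox6a1, the ubiquitous isoform of subunit VIa, is shown for chr5:115348959-115349208 and holds 2 matches of the NRF1 motif, named for a factor known for its sites in respiratory chain genes, and 1 of an ETS motif (CCGGAAG), here on the opposite strand. Atp5e, the epsilon subunit of complex V, is shown for chr2:174464102-174464351 and holds 1 ETS match, also on the opposite strand.
Cox8b: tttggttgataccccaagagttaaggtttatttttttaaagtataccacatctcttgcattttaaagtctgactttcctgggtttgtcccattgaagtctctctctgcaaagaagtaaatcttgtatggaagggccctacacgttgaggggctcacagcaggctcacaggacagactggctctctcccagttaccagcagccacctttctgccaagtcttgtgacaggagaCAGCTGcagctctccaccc
Cox6a1: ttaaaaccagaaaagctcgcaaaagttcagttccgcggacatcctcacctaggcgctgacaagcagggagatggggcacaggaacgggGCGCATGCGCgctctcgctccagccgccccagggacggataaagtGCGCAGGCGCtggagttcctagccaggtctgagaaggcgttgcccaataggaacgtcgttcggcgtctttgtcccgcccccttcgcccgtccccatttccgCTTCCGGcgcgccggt
Atp5e: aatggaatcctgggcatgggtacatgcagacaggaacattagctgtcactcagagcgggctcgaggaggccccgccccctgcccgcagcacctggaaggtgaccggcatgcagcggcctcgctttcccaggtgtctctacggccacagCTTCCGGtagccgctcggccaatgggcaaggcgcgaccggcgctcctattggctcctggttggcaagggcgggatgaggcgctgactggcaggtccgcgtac

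Motif matches were counted on both strands in windows of 300 bases, 250 before and 50 after each start. All 81 members were matched to RefSeq genes, and 66 of them had 71 promoters in the table, which holds 32851. NRF1 matches were in 17 of the 71 member promoters (23.9%) and 4.60% of all promoters. ETS matches were in 16 (22.5%) and 8.86%. YY1 matches (AAGATGGC) were in 10 (14.1%) and 2.75%, and matches of the estrogen-related receptor site (AAGGTCA) in 8 (11.3%) and 4.72%. The muscle motifs were scarcer, with the E-box in 6 (8.45%) and 16.3%, and MEF2, an AT-rich motif of muscle transcription, in 0 and 3.19%. Matches of different motifs overlapped in 0 of the member promoters. The member promoters had a median GC content of 57.7%, and all promoters 52.7%. A match is a description of the letters and not of binding.

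Per length of transcript, complex V had the most abundant transcripts of the 5 complexes, and complexes I and II the least abundant. The median level per kilobase, averaged over the 16 libraries, was 44.0 normalised counts in complex I, 44.3 in complex II, 59.5 in complex III, 129 in complex IV and 203 in complex V. The highest was 414 per kilobase for Atp5b, the catalytic beta subunit of complex V, with 558 to 1083 normalised counts in the 16 libraries. The lowest were tissue isoforms and less central members, with 2.43 per kilobase for Ndufa4l2, 6.14 for Atp5s, 7.68 for Cox8b and 8.02 for Cox4i2. Ndufb4, at 4.84 to 17.9 normalised counts, is uncertain, because its near-identical copy Ndufb4c, at 11.5 to 35.7, can take a share of its reads.

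Levels of all complexes followed the Mylpf split across the 4 groups. The mean log2 level of the 81 members was 5.63 to 6.33 in the 10 libraries with Mylpf at least 100, with a median of 6.00, and 5.25 to 5.53 in the 6 libraries below 100, with a median of 5.47. These ranges did not overlap. The same held for complex II (6.36 to 6.93 and 6.11 to 6.28), complex III (5.94 to 6.64 and 5.55 to 5.90), complex IV (5.46 to 6.09 and 4.80 to 5.11) and complex V (6.79 to 7.51 and 6.36 to 6.66). Complex I overlapped, at 5.04 to 5.82 with Mylpf at least 100 and 4.80 to 5.12 below 100, through mutant aortic library 2. That library is also the one nearest above the threshold by Mylpf. Its summed skeletal muscle markers, at 825, were above those of mutant aortic 1 (801) and mutant pulmonary 3 (804). Its summed cardiomyocyte markers, at 960, were the lowest of the 10 libraries, and its endothelial markers, at 879, the highest. The part of cell types in its level was not tested.

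**Figure D1:**
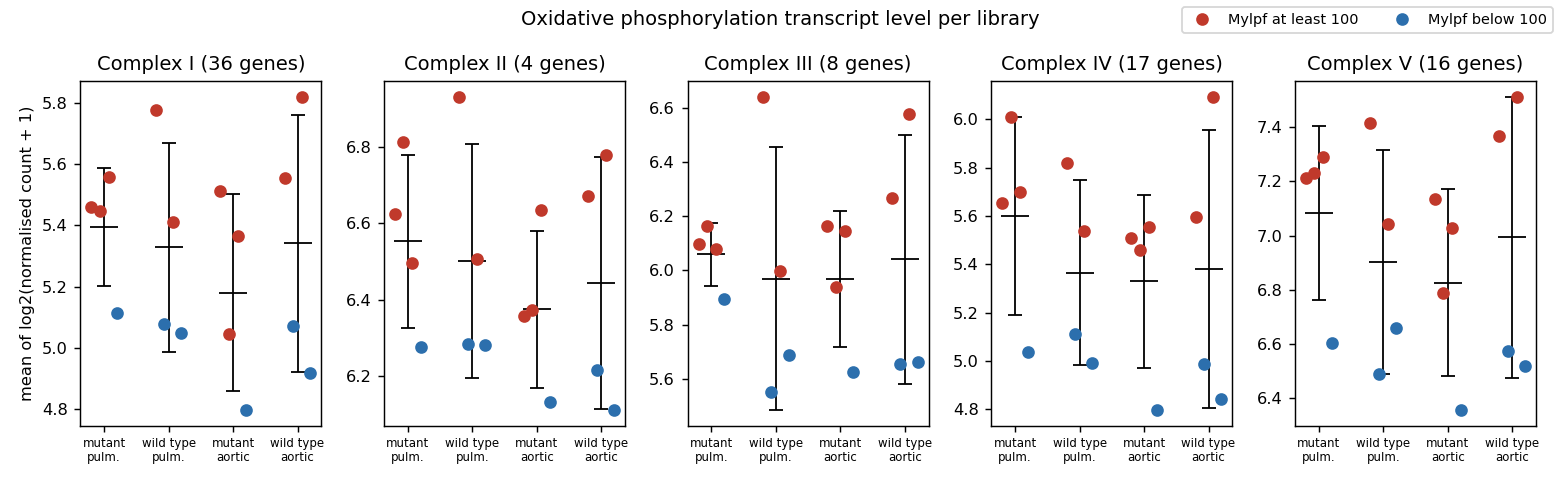
Mean of log2(normalised count + 1) over the members of each complex, on the vertical axis, in each library of the 4 groups; points are libraries, the horizontal bar is the group mean and the whiskers are ± 1 SD (n = 4). Vertical axes differ between panels and do not start at 0. Within every group the libraries with Mylpf below 100 are the lowest; for complex V they lie between 6.36 and 6.66, and the others between 6.79 and 7.51.

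Genotype groups overlapped in all 5 complexes. The mean log2 level of the 81 members averaged 5.89 ± 0.25 in mutant and 5.77 ± 0.37 in wild-type pulmonary libraries, and 5.67 ± 0.31 in mutant and 5.80 ± 0.47 in wild-type aortic libraries (SD, n = 4 each). For complex V the values were 7.21, 7.23, 7.29 and 6.60 in mutant and 7.41, 6.49, 7.04 and 6.66 in wild-type pulmonary libraries. Aortic values were 7.14, 6.79, 7.03 and 6.36 in mutant and 7.37, 6.58, 7.51 and 6.52 in wild-type libraries. In each group the lowest values came from the libraries with Mylpf below 100.

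Nearly all members were higher in the libraries with Mylpf at least 100. The log2 difference, at least 100 minus below 100, was above 0 for 79 of 81 members and at least 0.5 for 45 of 81, against 49.8% and 20.5% of the 13963 genes tested. Its median was 0.56 for the members and -0.00 for all genes. For 17 of 81 members (21.0%) every library with Mylpf at least 100 was higher than every library below 100, which was so for 3.68% of all genes. The opposite order was found for 0 of 81 members and 2.6% of all genes. The 2 members with a difference below 0 were Cox4i2 and Sdha.

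Most of the members without overlap belonged to complexes IV and V. The median log2 difference was 0.50 in complex I, 0.48 in complex II, 0.51 in complex III, 0.50 in complex IV and 0.66 in complex V. The members without overlap were 1 of 36 in complex I, 0 of 4 in complex II, 2 of 8 in complex III, 7 of 17 in complex IV and 7 of 16 in complex V. The complexes also differed in level. The median member had 39.1 normalised counts in complex I, 102 in II, 54.2 in III, 93.2 in IV and 130 in V. The part of level in the counts without overlap was not tested. The 7 of complex IV include Cox6a2, Cox8b and Ndufa4l2, low genes with counts at or near 0 in most libraries below 100. Cox8b and Ndufa4l2 reached 1 normalised count only in libraries with Mylpf at least 100. They thus met the filter, 1 or more in 4 or more libraries, through that set alone, so their place in the count is partly set by the filter. Among the 75 members with a mean of at least 10 normalised counts, 14 were without overlap (4.24% of all genes with such a mean). These were 4 of 12 in complex IV, 7 of 15 in complex V and the rest in complexes I and III. The median log2 difference of the 75 members was 0.54. The count depends on the libraries in view. It was 26 of 81 (4.35% of all genes) without mutant aortic library 2, and 30 of 81 (8.51%) in the pulmonary and 32 of 81 (12.2%) in the aortic libraries alone. Within mutant libraries it was 31 of 81 (13.8%), and within wild-type libraries 41 of 81 (10.1%). The median log2 difference was 0.49 within the pulmonary, 0.59 within the aortic, 0.49 within the mutant and 0.68 within the wild-type libraries.

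**Figure D2:**
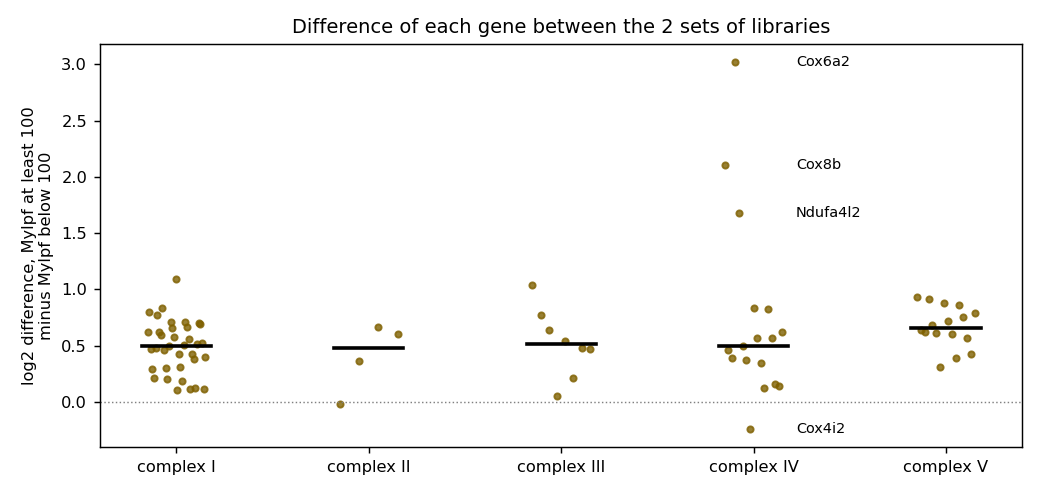
Log2 difference of each member between the 10 libraries with Mylpf at least 100 and the 6 below 100, on the vertical axis, by complex; each point is a gene and the black bars are medians. The medians lie between 0.48 and 0.66, while Cox6a2, Cox8b and Ndufa4l2 of complex IV stand above 1.5 and Cox4i2 and Sdha lie below 0.

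In complex I, which takes electrons from NADH, the widest differences were those of Ndufa12 and Ndufa5. Ndufa12, an accessory subunit of the arm that reaches into the matrix, was 15.9 to 51.6 normalised counts (median 29.0) with Mylpf at least 100 and 9.88 to 20.3 (median 12.6) below 100, a log2 difference of 1.09. The sets overlapped, and the difference was 0.32 within mutant and 1.78 within wild-type libraries. Ndufa5, another accessory subunit of that arm, was 17.4 to 49.8 and 14.6 to 25.1 (log2 difference 0.84). Ndufa10, an accessory subunit of the membrane arm, was the member of complex I whose sets did not overlap, at 46.3 to 82.5 and 32.7 to 46.1. The smallest difference was that of Ndufv1, the subunit that binds NADH, at 19.2 to 49.3 and 23.5 to 42.1 (log2 difference 0.10).

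In complex II, which oxidises succinate, the difference was not shared by all 4 genes. Sdha, the flavoprotein that binds succinate, was 101 to 172 normalised counts (median 119.7) with Mylpf at least 100 and 106 to 145 (median 128) below 100, a log2 difference of -0.02. The sets of Sdha overlapped almost wholly. Sdhc and Sdhd, which anchor the complex in the membrane, had differences of 0.66 and 0.60, and the iron-sulphur subunit Sdhb 0.36. Sdhc was 81.1 to 127 and 51.9 to 82.2, so only its nearest values crossed.

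In complex III, which passes electrons to cytochrome c, Uqcrfs1 differed most. Uqcrfs1, the Rieske iron-sulphur protein, was 48.2 to 93.0 normalised counts (median 63.8) with Mylpf at least 100 and 19.5 to 38.1 (median 32.9) below 100, with no overlap and a log2 difference of 1.04. Uqcrh, the hinge protein beside cytochrome c1, was 133 to 248 and 92.3 to 128, also without overlap. Uqcrb, a small subunit near the quinone site, was 27.8 to 41.3 and 22.6 to 38.7, with a log2 difference of 0.05.

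Complex IV, which hands electrons to oxygen, held the widest differences and also the lowest, that of Cox4i2. Cox6a2, the heart and skeletal muscle isoform of subunit VIa, was 5.29 to 30.2 normalised counts (median 9.90) with Mylpf at least 100 and 0 to 4.70 (median 0.159) below 100. Cox8b, the muscle isoform of subunit VIII in rodents, was 0.700 to 10.2 (median 3.95) and 0 to 0.371 (median 0). Neither muscle isoform overlapped between the sets, with log2 differences of 3.02 and 2.11, and both were at or near 0 in most libraries below 100. The exception among these was wild-type aortic library 2, with 4.70 for Cox6a2, which also had the highest Mylpf of the 6. Ndufa4l2, a relative of Ndufa4, was 1.14 to 9.66 and 0 to 0.470, also without overlap, at a log2 difference of 1.68. On these low counts the size of the difference depends on the value added before taking logs: that of Cox8b was 2.81 with 0.5 and 0.82 with 5, and that of Cox6a2 1.54 with 5.

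The ubiquitous partners of these isoforms were more abundant per length and differed less: the mean level per kilobase was 12.6 normalised counts for Cox6a2 and 235 for Cox6a1, and 7.68 for Cox8b and 213 for Cox8a. Cox6a1, the ubiquitous isoform of subunit VIa, was 111 to 177 normalised counts (median 136) with Mylpf at least 100 and 106 to 152 (median 119.7) below 100, with overlap and a log2 difference of 0.16. Cox8a was 117 to 184 (median 134) and 69.1 to 96.1 (median 76.4), without overlap and at 0.82, so both isoforms of subunit VIII were higher with Mylpf at least 100. The log2 ratio of Cox6a2 to Cox6a1 differed by 2.86 between the sets, that of Cox8b to Cox8a by 1.28 and that of Ndufa4l2 to Ndufa4 by 1.22. Each of these ratios overlapped between the sets. In wild-type aortic 2, with Mylpf below 100, they were -4.30, -5.96 and -5.82. Some with Mylpf at least 100 were lower, at -4.72 (wild-type pulmonary 1), -6.40 (mutant pulmonary 3) and -6.42 (mutant pulmonary 1). Where an isoform is at 0, its ratio rests on the value added before taking logs. Cox4i2, the isoform of subunit IV known from lung, had a log2 difference below 0, on low counts and with overlap. It was 2.04 to 10.7 and 4.39 to 8.69 (log2 difference -0.24), and its ratio to Cox4i1 differed by -0.58. Cox7a2, Cox7b and Ndufa4 were without overlap as well, with log2 differences of 0.57, 0.84 and 0.46. Cox6c, a small subunit, and Cox6b2, an isoform known from testis, had log2 differences of 0.12 and 0.14, and Cox4i1, Cox6b1 and Cox7a2l 0.34, 0.37 and 0.62.

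**Figure D3:**
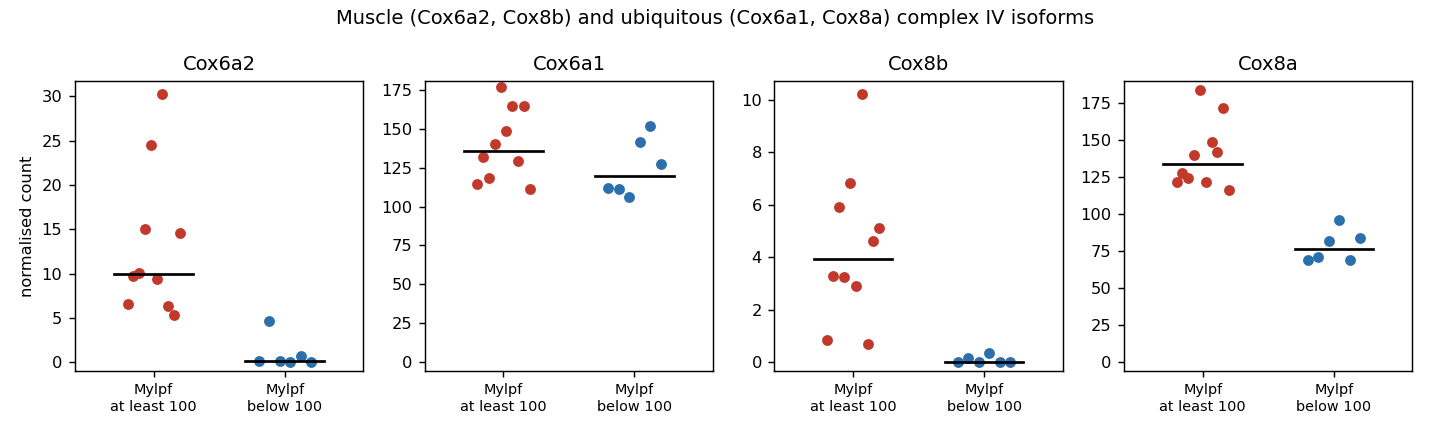
Normalised counts, on vertical axes that differ in scale, of the muscle isoforms Cox6a2 and Cox8b and the ubiquitous isoforms Cox6a1 and Cox8a of complex IV in the 10 libraries with Mylpf at least 100 and the 6 below 100; each point is a library and the lines are medians. Cox6a2, Cox8b and Cox8a do not overlap between the sets, while Cox6a1 does, at 111 to 177 and 106 to 152.

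In complex V all 16 members had log2 differences above 0, of 0.31 to 0.93. Atp5o, which joins the catalytic head to the peripheral stalk, was 156 to 219 normalised counts (median 178) with Mylpf at least 100 and 78.1 to 108 (median 98.2) below 100. Atp5e, the epsilon subunit of the central stalk, was 126 to 190 (median 154) and 68.4 to 107 (median 78.7). Neither overlapped, and their log2 differences of 0.93 and 0.92 were the largest of complex V. Atp5g3, a gene for the c subunit of the membrane ring, was 206 to 360 and 148 to 203, without overlap, with a log2 difference of 0.72. Atp5a1, Atp5c1, Atp5l and Atp5mpl were the other members without overlap, at 0.62, 0.75, 0.64 and 0.86. Atp5d, the delta subunit of the central stalk, had the smallest difference at 0.31. The ratio of the c subunit genes Atp5g1 and Atp5g3 was nearly the same in both sets, with a log2 difference of 0.07.

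Short transcripts as a whole were higher in the libraries with Mylpf at least 100, and many members are short. Among transcripts of up to 750 bases, the median log2 difference was 0.57 for 37 members and 0.41 for 285 other genes, ribosomal protein genes left out. From 750 to 1500 bases it was 0.57 for 26 members and 0.20 for 1525 other genes, and from 1500 to 3000 bases 0.51 for 17 members and 0.03 for 4415 others. The members' median thus stayed between 0.51 and 0.57 over these lengths, while that of other genes was lower at greater length. The share of members without overlap was 27.0%, 19.2% and 11.8% in these bands, against 8.07%, 4.72% and 3.40% of the other genes. With ribosomal protein genes and members counted in, the share was 15.6%, 6.05% and 3.54% of all genes in these bands. The median log2 difference of all genes up to 750 bases was then 0.49, so the gap to the members depends on the genes left out. The part of transcript length in the difference was not tested further.

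**Figure D4:**
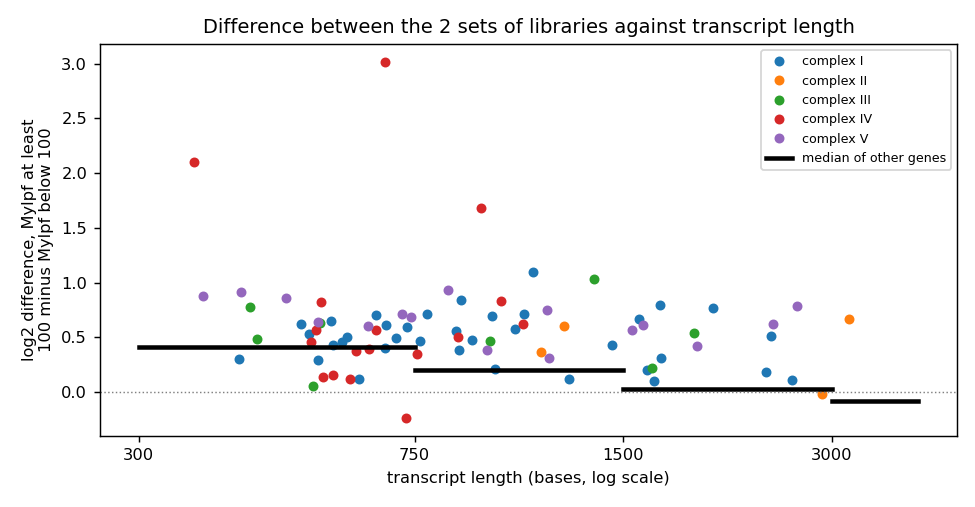
Log2 difference between libraries with Mylpf at least 100 and below 100, on the vertical axis, against transcript length in bases (log scale); points are the 81 members, coloured by complex, and black bars are the medians of other genes in each length band. The members' medians stay at 0.51 to 0.57 up to 3000 bases. The medians of other genes, with ribosomal protein genes left out, are 0.41, 0.20 and 0.03.

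Other genes of mitochondrial respiration showed smaller differences than the members in the median. The 13 subunits encoded by mitochondrial DNA had a median log2 difference of 0.25 between the sets, 12 of them above 0, and none was without overlap. For 43 of 44 listed assembly factors it was 0.42, with 37 above 0 and 1 without overlap. Of 11 listed electron and nucleotide carriers, 8 were measured, and all 8 were above 0, with a median of 0.48 and 3 without overlap. The share without overlap was thus larger among carriers than among the members (17 of 81), and it was 3.68% of all genes. For the 13 enzymes of the citric acid cycle it was 0.21, with 10 above 0. For 12 of 15 regulators of mitochondrial biogenesis it was 0.35, with 7 above 0.

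Genotype gave no member that passed the threshold in either valve. The effect of the Jag1flox;Nkx2.5-Cre genotype on each gene was tested with limma, with Benjamini-Hochberg adjustment over 13963 genes. In the pulmonary valve 0 of 81 members passed an adjusted p of 0.05 (0.0% of all genes), and 0 had an unadjusted p under 0.05 (3.13% of all genes). The aortic valve likewise gave 0 of 81 (0.0% of all genes), and 0 at an unadjusted p under 0.05 (1.4%). With edgeR and DESeq2 0 of 81 members passed in either valve as well, where edgeR called 0.0% of all genes in each and DESeq2 0.0143% in the pulmonary and 0.0% in the aortic valve. All adjusted p-values of the members named below were 1.00 with limma.

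Most members lay above 0 in the pulmonary valve and below 0 in the aortic valve, and no member passed the test of that difference. In the pulmonary valve 59 of 81 members (72.8%) had a log2 difference, mutant minus wild type, above 0, against 50.9% of all genes, with a median of 0.11 for members and 0.01 for all genes. Aortic differences were below 0 for 65 of 81 members (80.2%), against 47.2% of all genes, with medians of -0.13 and 0.02. By complex the pulmonary medians were 0.10, 0.08, 0.13, 0.12 and 0.18 for complexes I to V, and all 16 members of complex V were above 0. The aortic medians were -0.20, -0.07, -0.06, -0.12 and -0.13, and 31 of 36 members of complex I and 15 of 16 of complex V were below 0. The difference of the genotype effects, pulmonary minus aortic, was above 0 for 67 of 81 members (48.3% of all genes), with a median of 0.24, and 0 members passed the limma test of that difference (0.0% of all genes). It gave 1 member at an unadjusted p under 0.05 (1.89% of all genes), and 0 members passed with edgeR or DESeq2 (0.0% of all genes with each).

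These directions moved with the mix of libraries. Among libraries with Mylpf at least 100 alone, the median was -0.02 in the pulmonary and -0.39 in the aortic valve, and 39 of 81 members were above 0 in the pulmonary valve. With the Mylpf split as a term, the pulmonary median was -0.04 and the aortic one -0.29. The aortic median was 0.01 without mutant library 4, 0.03 without wild-type library 3 and 0.09 with limma's library weights. The cardiomyocyte markers had a median genotype difference of 0.60 in the pulmonary valve, with 9 of 12 above 0, and -0.28 in the aortic valve, with 11 of 12 below 0. Skeletal muscle markers had medians of 0.98 and 0.46. Their part in the members' directions was not tested.

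**Figure D5:**
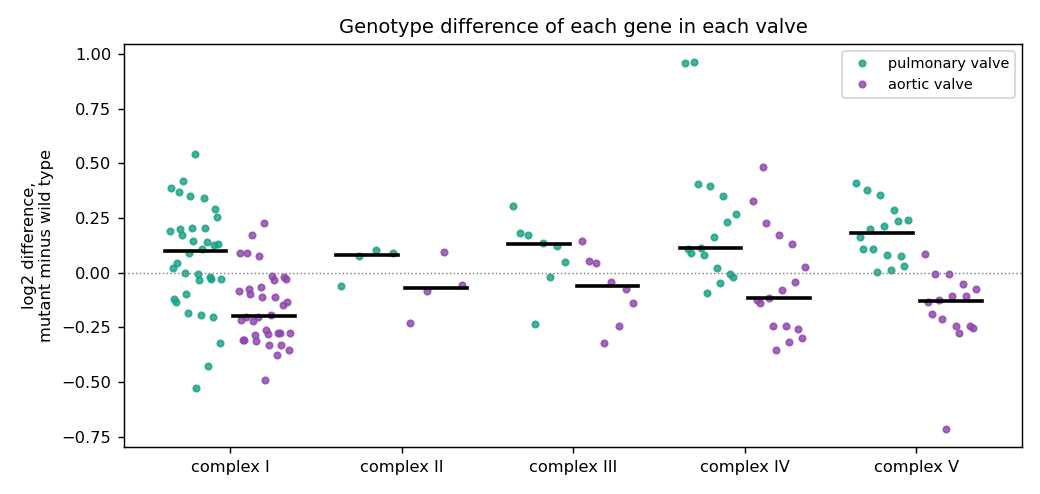
Log2 difference between mutant and wild-type libraries of each member, on the vertical axis, by complex and valve; each point is a gene and the black bars are medians. Pulmonary medians lie at 0.08 to 0.18 and aortic medians at -0.20 to -0.06, and none of the 81 genes passed an adjusted limma p of 0.05.

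Within complex I, Ndufb7, an accessory subunit of the membrane arm, had the smallest p over both valves. It was 28.9, 32.6, 22.3 and 24.9 normalised counts in mutant and 51.5, 34.2, 54.9 and 24.5 in wild-type pulmonary libraries (log2 difference -0.53, SE 0.28). Aortic values were 26.7, 19.9, 26.1 and 23.5 in mutant and 23.5, 34.6, 47.7 and 34.2 in wild-type libraries (-0.49, SE 0.28). In both valves the groups overlapped, and the mutant was lower in 3 of 4 litter pairs. Averaged over both valves its log2 difference was -0.51 (SE 0.20) with an unadjusted limma p of 0.0191 and an adjusted p of 1.00. It was the 1 member under 0.05 unadjusted in that comparison (2.79% of all genes), in which 0 of 81 passed with limma (0.0% of all genes), edgeR (0.0%), DESeq2 (0.0358%) or limma with the litter as a block (0.00716%).

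Ndufs1 and Ndufa7 had differences of opposite sign in the valves. Ndufs1, an iron-sulphur core subunit, was 64.0, 59.1, 45.6 and 47.7 normalised counts in mutant and 60.0, 50.6, 44.5 and 47.3 in wild-type pulmonary libraries (log2 difference 0.09, SE 0.18). Aortic values were 45.9, 45.4, 42.8 and 36.1 in mutant and 60.2, 54.5, 54.7 and 52.3 in wild-type libraries (-0.38, SE 0.18). The aortic groups of Ndufs1 did not overlap, the mutant was lower in every litter pair, and limma gave an unadjusted p of 0.0545 and an adjusted p of 1.00. The difference between the valves was 0.47 (SE 0.26), with an unadjusted limma p of 0.0892 and an adjusted p of 1.00. Ndufa7, an accessory subunit of the matrix arm, was 44.5, 47.4, 54.6 and 42.4 in mutant and 36.0, 20.6, 40.3 and 35.0 in wild-type pulmonary libraries (0.54, SE 0.28), without overlap. Its limma p there was 0.0688 unadjusted and 1.00 adjusted. Its aortic log2 difference was -0.33 (SE 0.28), with overlap, and the difference between the valves was 0.87 (SE 0.39) with an unadjusted limma p of 0.0404 and an adjusted p of 1.00.

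In complexes II and III no member passed the test. In the pulmonary valve the log2 difference was 0.07 for Sdhc, 0.11 for Sdhb and -0.06 for Sdha, with SE of 0.29, 0.25 and 0.19. The aortic values were -0.23, -0.09 and -0.06, with the same SE. Uqcrc1, a core protein of complex III, had a pulmonary difference of 0.31 (SE 0.22) and Uqcrb one of -0.24 (SE 0.20), lower in the mutant of 4 of 4 litter pairs. Uqcr10 and Uqcrq, small subunits of complex III, had aortic differences of -0.32 (SE 0.36) and -0.24 (SE 0.32). That of Uqcr10 was -0.56 without wild-type aortic library 4 and -0.026 without wild-type aortic library 3.

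In complex IV the members with the smallest p again did not pass. Cox7c, a small subunit, was 75.6, 85.1, 111 and 51.9 normalised counts in mutant and 82.9, 51.9, 55.6 and 49.7 in wild-type pulmonary libraries (log2 difference 0.40, SE 0.26). Aortic values were 67.0, 91.5, 83.9 and 55.0 in mutant and 62.5, 63.3, 83.1 and 45.3 in wild-type libraries (0.23, SE 0.26). The groups overlapped in both valves, and the aortic value was higher in the mutant of all 4 litter pairs. Ndufa4l2 had a pulmonary difference of 0.96 (SE 0.74) on 0 to 9.66 counts in mutant and 0 to 1.85 in wild-type libraries. It was 0.41 without mutant pulmonary library 2 and 1.55 without mutant pulmonary library 4. Cox4i1 and Cox6c had aortic differences of -0.32 (SE 0.22) and -0.25 (SE 0.17), each lower in the mutant of 4 of 4 litter pairs.

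In complex V the widest aortic difference was that of Atp5g1. It was 54.6, 44.8, 108 and 52.3 normalised counts in mutant and 138, 67.4, 162 and 67.9 in wild-type aortic libraries (log2 difference -0.71, SE 0.44). The groups overlapped through mutant library 3, while the mutant was lower in every litter pair. Its limma p was 0.12 unadjusted and 1.00 adjusted, and 0.0413 unadjusted with the litter as a block, under which 0 members passed after adjustment. The log2 ratio of Atp5g1 to Atp5g3 averaged -1.80 ± 0.51 in mutant and -1.19 ± 0.21 in wild-type aortic libraries (SD, n = 4 each), with an exact two-sided permutation p of 0.0571 and 0.571 after Benjamini-Hochberg adjustment over 10 tests of ratios. In the pulmonary valve the ratio averaged -1.80 ± 0.37 in mutant and -1.92 ± 0.67 in wild-type libraries. The ratios of the muscle isoforms to their partners differed less than their spread, with adjusted exact permutation p of 0.914 each. Atp5e and Atp5j, a subunit of the peripheral stalk, had pulmonary differences of 0.41 (SE 0.34) and 0.38 (SE 0.30), and Atp5d an aortic one of -0.25 (SE 0.21).

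Some members had the same sign in every litter pair of a valve. In the pulmonary valve 4 of 81 members (Ndufa7, Ndufs1, Ndufv3 and Atp5e) were higher in the mutant of 4 of 4 litter pairs (6.67% of all genes) and 2 (Ndufb6 and Uqcrb) were lower (6.9%). Of the aortic pairs, 1 member (Cox7c) was higher in all 4 (5.99%) and 10 (12.3%) were lower (5.03%): Ndufb5, Ndufc2, Ndufs1, Ndufv1, Sdhc, Uqcr10, Cox4i1, Cox5a, Cox6c and Atp5g1. Ndufs1 was thus in the set with a shared direction in both valves, with opposite signs.

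The other genes of respiration gave no call by genotype. The 13 subunits encoded by mitochondrial DNA had a median log2 difference of -0.05 in the pulmonary valve, with 9 below 0, and -0.10 in the aortic valve, with 13 below 0. The citric acid cycle enzymes had medians of -0.14 and -0.08, assembly factors 0.01 and 0.01, carriers 0.06 and -0.05, and biogenesis regulators 0.10 and -0.08. None of these genes passed the threshold in either valve with limma. At an unadjusted limma p under 0.05 there were 1 of 43 assembly factors and 1 of 12 biogenesis regulators in the pulmonary valve (3.13% of all genes). In the aortic valve there were 0 of these genes (1.4% of all genes).

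Between the valves, averaged over genotypes, 0 of 81 members passed the threshold (0.0% of all genes) and 0 had an unadjusted limma p under 0.05 (0.337%). The log2 difference, pulmonary minus aortic, was above 0 for 63 of 81 members (47.1% of all genes), with a median of 0.08. With edgeR and DESeq2 0 members passed as well (0.0% of all genes with each). Any such difference would also be one between library batches.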

How the data were processed

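Per the labels' protocols, RNA was isolated on PicoPure columns, amplified with Ovation RNA-Seq V2 and made into TruSeq libraries. Per the submitters' processing notes, CASAVA 1.8.2, cutadapt 1.6, FastQC, RSEM 1.2.3 and build GRCm38 were used. The authors' normalised signal was deposited for 13964 genes; no source used here states its scaling, but 100% of values gave whole reads at a tolerance of 0.05, and the deposited scaling differed from recomputed trimmed-mean factors by at most 3.7e-07%. RSEM can share reads between near-identical copies. Gene symbols came from GENCODE M21 (13780 of 13964 IDs matched), and transcript lengths are medians over principal transcripts.

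Genes were kept with 1 or more normalised counts in 4 or more libraries (13963 genes, all 81 members). limma 3.58.1 in R 4.3.3 was run on log2(value + 1) with a mean per group and a trend over 16 libraries, as a two-sided test, and p-values were adjusted by Benjamini-Hochberg and called under 0.05. edgeR 4.0.16 and DESeq2 1.42.0 on recovered reads, other scalings, pseudocounts and filters, library weights, the Mylpf split and leaving out each library were alternatives. The fits were tested on simulated data. Replicates correlated at 0.790 to 0.932 over 24 pairs. Mutant and wild-type libraries of 1 number in 1 valve share a litter by the labels, with 5 litters in all. Their deviations from group means correlated at 0.49, -0.03, 0.07 and 0.45 in the pulmonary and 0.48, 0.01, 0.20 and 0.64 in the aortic valve. The permutation tests of Jag1 and of the isoform ratios did not use these pairs. Members, lists and tests were chosen with earlier results of these data known. Members named with values are, by complex, the 2 of smallest p per valve, the highest and lowest in level, those of widest and narrowest split, and tissue isoforms; others were named after their values were seen. Values of 1 member that met this rule are not reported here. Libraries of a group are separate by label, and amplified reads without molecular identifiers need not be independent molecules.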

Additional observations from a re-analysis of the deposited data

Results flagged for a closer look

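Among 188 checks of groups of 4 libraries, 12 found 1 library far from the other 3 by Dixon's criterion, and chance alone flags about 1 in 20 such groups. The total was not far above that share. In 11 of the 12 the outlying library was mutant pulmonary 4 or mutant aortic 4, the libraries with Mylpf below 100 in their groups, and it was the lowest of its group. Each wild-type group held more than 1 library below 100, so a rule for 1 outlying library is not suited to flag the same shift there.

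In mutant pulmonary library 4, Ndufa5 was 19.0 normalised counts against 33.2 to 35.4 in the other mutant pulmonary libraries. In the same library Atp5e was 106.6 against 157.6 to 170.1, and Atp5g3 was 177.6 against 297.0 to 318.6. The mean log2 level of all members was 5.53 there against 5.97 to 6.06, and that of complex V was 6.60 against 7.21 to 7.29.

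In mutant aortic library 4, Ndufa12 was 20.3 normalised counts against 28.1 to 29.5 in the other mutant aortic libraries, and Sdhc 51.9 against 81.1 to 87.7. Cox6a2 was 0.142 there against 6.56 to 10.1, Cox8a 69.1 against 121.8 to 127.7, and Atp5e 68.4 against 136.9 to 150.7. The mean log2 level of complex IV was 4.80 against 5.46 to 5.56. In wild-type aortic library 2, Uqcrb was 22.6 against 34.2 to 35.3 in the other wild-type aortic libraries.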

How the results depend on the processing

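No alternative gave a member past the threshold in any comparison, with the litter block (replicate block) included, which changed no call. The count of aortic members below 0, 65 in the report, was 28 with library weights and ranged over 34 to 72 when each library was left out, with 39 without mutant aortic 4 and 34 without wild-type aortic 3. The count of pulmonary members above 0, 59 in the report, was 34 with the Mylpf split as a term and 39 among libraries with Mylpf at least 100, and 46 to 72 when each library was left out. Members without overlap between the Mylpf sets numbered 17, and 17 to 26 when each library was left out, 30 in pulmonary, 32 in aortic, 31 in mutant and 41 in wild-type libraries alone. The counts of directions and the valve and genotype subsets of the split were chosen after seeing the data. Signs turned, with no call before or after, for Sdhb (aortic 0.19 with library weights, and -0.28 to 0.066 when each library was left out, 0.055 without mutant aortic 4; pulmonary -0.20 with Mylpf at least 100, and -0.0096 to 0.21), Sdha (pulmonary 0.086 with library weights, and -0.15 to 0.080), Uqcr10 (aortic 0.0027 with library weights), Uqcrq (aortic -0.51 to 0.0062 when each library was left out) and Atp5j (pulmonary -0.0068 with Mylpf at least 100). The cause was not tested, beyond the fewer libraries of the subsets. With 4 libraries a group, differences as small as the members' medians could not be told from the spread between libraries, and levels near 0, as of Cox8b, rest on few reads.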
